A study of Mus musculus with 3 samples.

Results

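Antigen presentation genes were followed in tdTomato-positive cells that flow cytometry had purified out of mouse ankle synovium, the tissue that lines the joint. The 10 genes were taken by name from a table of 56833 genes. They comprise 5 genes of the class I route (H2-K1, H2-D1, B2m, Tap1 and Tapbp) and 5 of the class II route (H2-Aa, H2-Ab1, H2-Eb1, Cd74 and Ciita). All cells had the genotype Efhd1CreER; Ai9, in which a Cre recombinase fused to the oestrogen receptor is expressed from Efhd1 and switches on the Ai9 tdTomato reporter, and they are labelled as telocytes, which are interstitial cells with long thin processes. Culture lasted 24 h on collagen-coated plates with a stiffness of 0.2 kPa, the softest, 8 kPa or 64 kPa, the stiffest. Each level had 1 library, and the study asked how matrix stiffness affects these cells. The age, sex, number and strain background of the mice, and whether animals were pooled beyond the up to 2 synovia digested in a tube, are not given in the sources used here. The strain decides the H2 haplotype, and with it how well reads of the polymorphic H2 genes match a reference.

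MHC class I molecules sit on almost every nucleated cell and show peptides from inside the cell to CD8 T cells. A heavy chain (H2-K1, H2-D1) pairs with the light chain beta-2 microglobulin (B2m). The transporter subunit Tap1 brings peptides into the endoplasmic reticulum, and tapasin (Tapbp) holds the empty heavy chain there until it is loaded. MHC class II molecules show peptides from endocytosed proteins to CD4 T cells and are typical of dendritic cells, B cells and activated macrophages. They consist of an alpha chain (H2-Aa) and a beta chain (H2-Ab1; H2-Eb1 is the beta chain of the other isotype), travel with the invariant chain (Cd74), and depend on the coactivator Ciita for transcription. Interferon gamma raises both sets and can induce class II in fibroblasts.

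Both sets are largely switched on through short elements before the gene start. Class I promoters are known for a kappaB-type site, and class II promoters for a Y box (CCAAT, or ATTGG on the other strand), each beside other elements. RefSeq promoter sequences (table build GRCm38.p6) were found for 7 of the 10 genes, and are read here over the 250 bases before the RefSeq start. That start lies within the gene in GENCODE for several of them: 250 of the 250 bases are in exons of the canonical transcript for H2-D1, 228 for Tapbp, 211 for B2m, 155 for Tap1 and 28 for H2-Eb1, and 0 for the H2-K1 and H2-Aa windows printed here. They are shown because H2-K1 and H2-D1, whose windows are alike in sequence, differed at 64 kPa, and because H2-Aa stands for the class II genes, which had few reads. The windows of H2-K1 at chr17:34219322-34219571 and H2-Aa at chr17:34506798-34507047 (GRCm39, by exact match, both on the minus strand) are given 5′ to 3′, with each motif match in capitals.
H2-K1: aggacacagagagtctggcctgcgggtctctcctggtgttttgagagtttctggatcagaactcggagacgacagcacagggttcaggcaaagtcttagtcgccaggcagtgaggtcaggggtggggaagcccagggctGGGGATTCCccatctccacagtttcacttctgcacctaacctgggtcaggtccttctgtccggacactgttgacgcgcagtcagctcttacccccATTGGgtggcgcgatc
H2-Aa: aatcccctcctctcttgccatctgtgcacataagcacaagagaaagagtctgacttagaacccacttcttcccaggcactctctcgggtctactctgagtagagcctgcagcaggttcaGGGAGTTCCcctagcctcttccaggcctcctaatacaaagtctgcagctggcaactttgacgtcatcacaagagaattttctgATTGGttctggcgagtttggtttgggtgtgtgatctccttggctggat

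The kappaB-type motif was searched as GGGNNTTNC on both strands. It was found in 4 of the 7 windows, those of H2-K1, H2-D1, B2m and H2-Aa, and in 13.0% of all 32851 promoters of the table. The 30 bases around it follow, with the motif in capitals, at chr17:34219413-34219442 (minus strand), chr17:35481889-35481918 (plus), chr2:121978033-121978062 (plus) and chr17:34506909-34506938 (minus) of GRCm39.
H2-K1: gcccagggctGGGGATTCCccatctccaca
H2-D1: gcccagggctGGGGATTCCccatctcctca
B2m: ctgaaaatggGAAAGTCCCtttgtaaccta
H2-Aa: agcaggttcaGGGAGTTCCcctagcctctt
The H2-K1 and H2-D1 stretches had 29 of 30 bases in common. Over the 190 bases of their windows that could be aligned, 87.4% were identical. The Y box core was found in all 7 windows and in 33.8% of all promoters. An interferon-stimulated response element core (TTTCNNTTT, both strands) was found in the B2m window alone of the 7, with 9.37% of all promoters. The printed H2-K1 window holds TTTCACTTC, which differs from that pattern in its last letter only. A window without a match may thus still hold a related sequence. These matches are letters and not measured binding sites, and the 3 motifs did not overlap each other in the stretches shown.

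The libraries held 25487064 reads at 0.2 kPa, 28081600 at 8 kPa and 26474862 at 64 kPa. Values are normalized counts as deposited, and log2 ratios were computed after adding 1 to each value, which understates the change of low genes. Intervals are exact 95% Clopper-Pearson intervals of the ratio of reads. They cover counting error only: there is no replicate, so differences between cultures are not included and no test was made. A count of 0 allows up to 3 reads. The cell label was checked against markers first. Fibroblast markers were abundant, with Col1a1 at 76716 to 148058 reads a library, and Pdgfra, which is named for telocytes too, at 4991 to 6681. Of the other telocyte markers the reporter tdTomato had 798 reads at 0.2 kPa, 1265 at 8 kPa and 2602 at 64 kPa, Cd34 229 to 310, Foxl1 181 to 247, Kit 41 to 44 and Efhd1 itself 3 to 10. Of 5 endothelial markers Kdr was the highest with 21 to 45 reads. All 16 macrophage markers had reads, and their summed level was 36120 normalized counts at 0.2 kPa, 45445 at 8 kPa and 77857 at 64 kPa. In bulk RNA, fewer cells of a type and less RNA per cell cannot be told apart. The B cell markers Cd79a, Cd79b and Ms4a1 had no read in any library, and neither had 4 of 9 dendritic cell markers (Flt3, Clec9a, Cd209a and Siglech).

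The class I genes were expressed strongly at every stiffness and the class II genes weakly. Together the 5 class I genes took 38914, 49300 and 45015 reads at 0.2, 8 and 64 kPa, and the 5 class II genes 377, 477 and 462 reads. Per kilobase of the canonical transcript, the mean level over the 3 libraries was 18518 normalized counts for B2m, 5565 for H2-K1, 4725 for H2-D1, 1351 for Tapbp and 331 for Tap1. Among class II genes it was 194 for H2-Ab1, 111 for Cd74, 21.2 for H2-Aa and 10.9 for H2-Eb1. The lowest class I gene per kilobase, Tap1, thus stood above the highest class II gene, H2-Ab1. Ciita had no read at any stiffness.

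**Figure D1:**
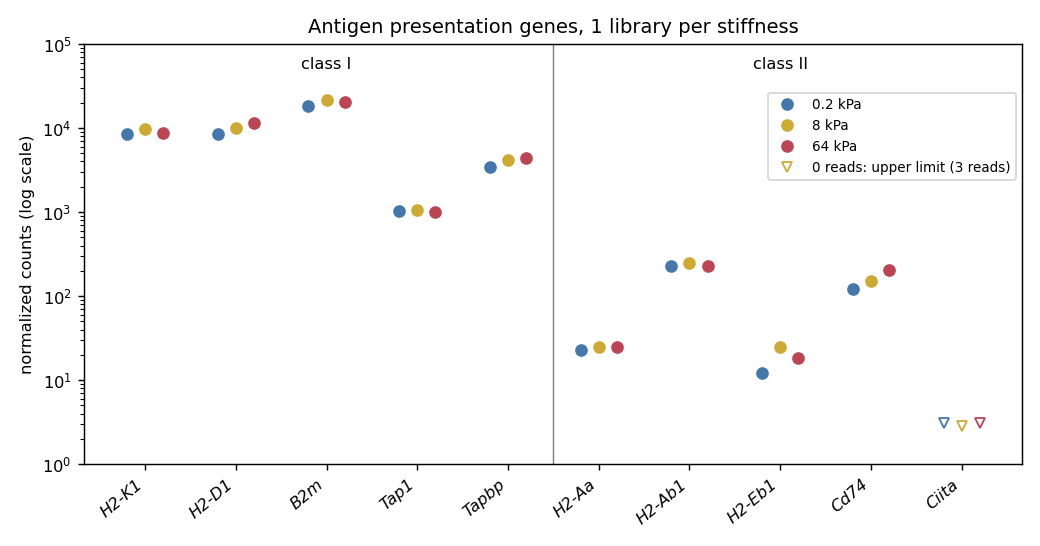
Normalized counts (log axis) of the 10 genes at 0.2, 8 and 64 kPa, 1 point a library, with class I on the left and class II on the right. Class I genes lie between 1011 and 21480 normalized counts and class II genes with reads between 12.3 and 250. The open triangles of Ciita mark the upper limit that 0 reads allow.

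A difference was counted past a log2 ratio of 1 where the mean over the libraries reached 50 normalized counts. None of the 10 genes passed in any comparison. Of the 10, 7 reached that mean: all 5 class I genes, H2-Ab1 and Cd74. Among all 11873 genes with that mean, 3.6% passed at 64 against 0.2 kPa, 0.168% at 8 against 0.2 kPa and 1.25% at 64 against 8 kPa. The median log2 ratio of the 5 class I genes was 0.14 at 64 against 0.2 kPa, 0.22 at 8 against 0.2 kPa and -0.05 at 64 against 8 kPa. That of the 4 class II genes with a mean of at least 10 was 0.33, 0.21 and -0.07. The lower limits of the counting intervals of these 4 genes had medians of -0.42, -0.09 and -0.63. Their upper limits had medians of 1.06, 0.83 and 0.63. These limits show the spread of single genes and are not an interval of the class II median, for which none was computed. The class II median rests on which genes are counted. With no minimum mean, which adds Ciita, the 64 to 0.2 kPa median was 0.12 and the 8 to 0.2 kPa median also 0.12. With a minimum of 50, which leaves H2-Ab1 and Cd74, the 64 to 8 kPa median was 0.15. Over the 14291 genes with a mean of at least 10 the medians were 0.00044, 0.0096 and 0.0065 in the same order. Both ratios to the 0.2 kPa library share that library, so they are not independent of each other.

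**Figure D2:**
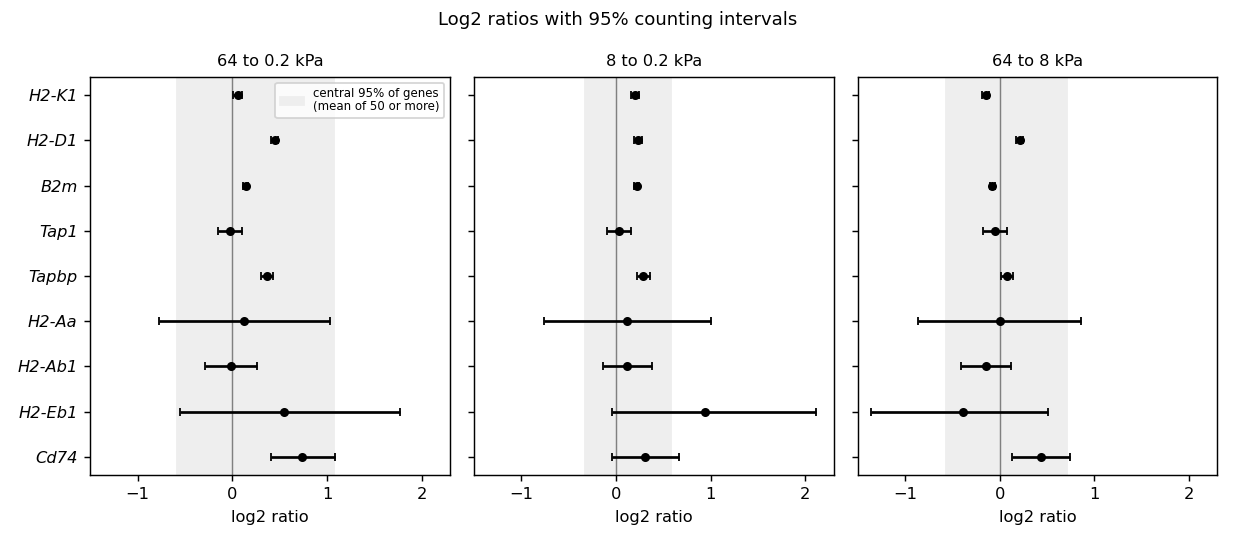
Log2 ratios (points) with 95% counting intervals (bars) of the 9 genes with reads, for the 3 comparisons. Grey marks the central 95% of all genes with a mean of at least 50. Class I intervals are narrow and lie inside it, and those of H2-Aa and H2-Eb1, with 12 to 26 reads, are wide.

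The heavy chain genes were alike at 0.2 and 8 kPa and differed at 64 kPa. H2-K1 lies on chromosome 17 (GRCm39, 34214987 to 34219321, minus strand); the canonical transcript has 8 exons. It had 8467 normalized counts at 0.2 kPa, 9762 at 8 kPa and 8802 at 64 kPa. The 8 kPa library was highest. The log2 ratio was 0.06 at 64 against 0.2 kPa (interval 0.01 to 0.10), 0.21 at 8 against 0.2 kPa (0.16 to 0.25) and -0.15 at 64 against 8 kPa (-0.19 to -0.11). The 64 to 0.2 kPa direction rests on the scaling: it was 0.00066 with scaling to total reads, -0.0018 with scaling to the upper quartile and 0.087 with a trend of the ratios with transcript length and GC content subtracted.

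H2-D1 lies on the same chromosome (35481691 to 35486475, plus strand), also with 8 exons. It had 8479 normalized counts at 0.2 kPa, 9981 at 8 kPa and 11548 at 64 kPa. Here the 64 kPa library was highest, and each step was upward. The log2 ratio was 0.45 at 64 against 0.2 kPa (interval 0.40 to 0.49), 0.24 at 8 against 0.2 kPa (0.19 to 0.28) and 0.21 at 64 against 8 kPa (0.17 to 0.25). Of all genes with a mean of at least 50, 13.6% had a higher 64 to 0.2 kPa ratio than H2-D1 and 43.0% a higher one than H2-K1.

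The balance of both genes puts this in a measure that no scaling of the libraries can alter. H2-D1 took 50.04% of the reads of the pair at 0.2 kPa (exact 95% interval 49.3 to 50.8), 50.6% at 8 kPa (49.9 to 51.2) and 56.7% at 64 kPa (56.1 to 57.4). The 0.2 and 8 kPa intervals overlap, and the 64 kPa interval lies above both. The genes are related in sequence. Of the 50-base stretches of the canonical H2-K1 transcript, 8.79% also occur in transcripts of other genes, most often H2-D1 (6.94%). For H2-D1 it was 14.2%, most often in H2-Q1 (7.35%). How reads with several matches were counted is not given in the sources used here, so part of either count is uncertain. Exons of an antisense gene also cover 30.5% of the exon bases of H2-K1 (Gm53999) and 34.2% of those of H2-D1 (5430410E06Rik). The library kit keeps the strand, but whether counting used it is not stated.

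B2m, the light chain, lies on chromosome 2 (121977957 to 121983594, plus strand), with 4 exons. It had 18482 normalized counts at 0.2 kPa, 21480 at 8 kPa and 20371 at 64 kPa. As for H2-K1, the 8 kPa library was highest and the 0.2 kPa library lowest in these values; with the trend subtracted the 64 to 8 kPa ratio was 0.038, which puts 64 kPa highest. The log2 ratio was 0.14 at 64 against 0.2 kPa (interval 0.11 to 0.17), 0.22 at 8 against 0.2 kPa (0.19 to 0.25) and -0.08 at 64 against 8 kPa (-0.10 to -0.05). The size of the 64 to 0.2 kPa ratio rests on the processing: it was 0.085 and 0.083 with scaling to total reads and to the upper quartile, and 0.27 with the trend subtracted. None of its 50-base stretches occurs in another gene, and no exon of another gene overlaps it. Per kilobase, B2m stood at 1.84 times the sum of H2-K1 and H2-D1 at 0.2 and 8 kPa and at 1.72 times at 64 kPa.

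**Figure D3:**
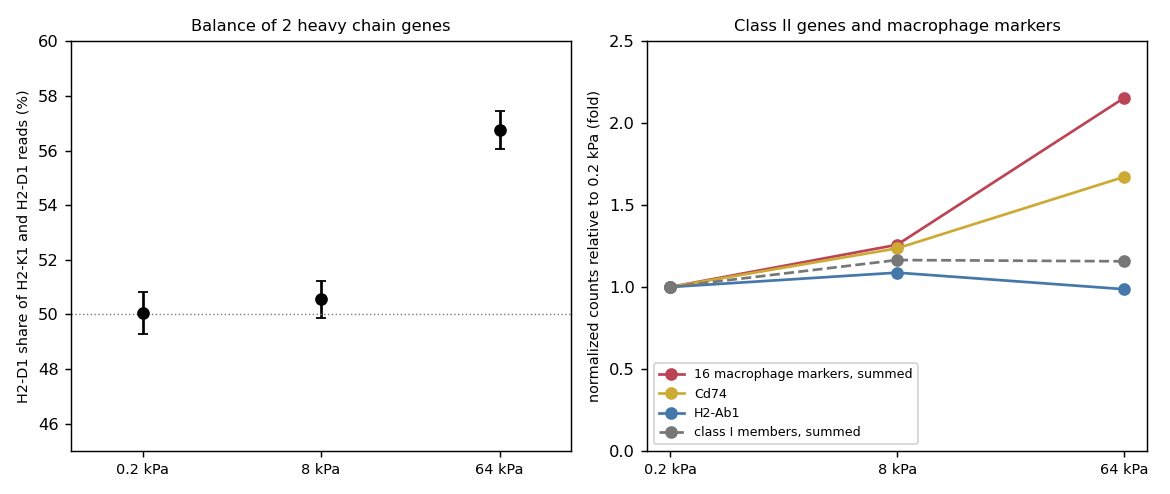
Left, the share of H2-D1 (%) in the reads of H2-K1 and H2-D1, with exact 95% intervals; the axis starts at 45%. Right, normalized counts relative to 0.2 kPa (fold) of 16 macrophage markers summed, Cd74, H2-Ab1 and the class I genes summed. The H2-D1 share is 56.7% at 64 kPa, and in that library the marker sum is 2.16 times, Cd74 1.67 times and H2-Ab1 0.99 times its 0.2 kPa level.

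The peptide loading genes also differed between themselves. Tapbp, on chromosome 17 (34134873 to 34148267, plus strand), had 3438 normalized counts at 0.2 kPa, 4204 at 8 kPa and 4431 at 64 kPa. The 0.2 kPa library was lowest and the other two close, with a 64 to 8 kPa log2 ratio of 0.08 (interval 0.02 to 0.14). The 64 to 0.2 kPa ratio was 0.37 (0.30 to 0.43) and the 8 to 0.2 kPa ratio 0.29 (0.23 to 0.36). The former was 0.23 with the trend subtracted, and the 64 to 8 kPa ratio 0.039 with scaling to total reads. Antisense exons cover 29.9% (Gm19412) and 10.9% (Gm64688) of the exon bases of Tapbp. Tap1, on chromosome 17 (34405996 to 34416199, plus strand), had 1027, 1048 and 1011 normalized counts at 0.2, 8 and 64 kPa. All 3 intervals of the Tap1 ratios included 0, and the 64 to 0.2 kPa ratio was -0.02 (-0.15 to 0.11). With the trend subtracted it was -0.16, outside that interval. Exons of Psmb9 on the opposite strand cover 11.7% of the Tap1 exon bases.

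In both comparisons with the 0.2 kPa library the counting interval lay above 0 for 4 of the 5 class I genes, all but Tap1. Among the 5022 genes with a mean of at least 1000, the depth of the class I genes, the share above 0 in this sense was 36.3% at 64 against 0.2 kPa and 26.4% at 8 against 0.2 kPa. At 64 against 8 kPa H2-D1 and Tapbp were above 0, a direction found for 33.1% of such genes, and H2-K1 and B2m below it, found for 29.5%. Of these, the B2m and Tapbp directions turned when the trend was subtracted, to 0.04 and -0.0016.

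Among the class II genes, Cd74 differed most at 64 against 0.2 kPa of those with a mean of at least 50. The invariant chain gene lies on chromosome 18 (60936899 to 60945731, plus strand), with 9 exons. It had 119 reads at 0.2 kPa, 160 at 8 kPa and 199 at 64 kPa, or 122, 151 and 204 normalized counts. Each step was upward. The 64 to 0.2 kPa log2 ratio was 0.74 (interval 0.41 to 1.08), the 8 to 0.2 kPa ratio 0.30 (-0.05 to 0.66) and the 64 to 8 kPa ratio 0.43 (0.13 to 0.75). Of the successive steps, the first had an interval that included 0 and the second did not. Of all genes with a mean of at least 50, 6.45% had a higher 64 to 0.2 kPa ratio, 11.8% reached 0.5 upward, and 31.3% had an interval above 0.

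H2-Ab1, the beta chain gene, lies on chromosome 17 (34476663 to 34488393, plus strand), with 6 exons. It had 224 reads at 0.2 kPa, 265 at 8 kPa and 221 at 64 kPa, or 230, 250 and 227 normalized counts. The 0.2 and 64 kPa libraries were nearly level, with a log2 ratio of -0.02 and an interval from -0.29 to 0.26. The 8 to 0.2 kPa ratio was 0.12 (-0.14 to 0.38) and the 64 to 8 kPa ratio -0.14 (-0.40 to 0.12). No difference in H2-Ab1 was detectable at this depth, and the 64 to 0.2 kPa interval leaves out a ratio as large as the 0.74 of Cd74. Per kilobase the ratio of Cd74 to H2-Ab1 was 0.450, 0.511 and 0.763 at 0.2, 8 and 64 kPa. H2-Ab1 and Cd74 share no 50-base stretch with another gene. Upward intervals in the 2 other comparisons were found for 21.8% (8 against 0.2 kPa) and 26.3% (64 against 8 kPa) of all genes with a mean of at least 50, and among these class II genes only for Cd74 at 64 against 8 kPa.

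H2-Aa, the alpha chain gene on chromosome 17 (34493404 to 34506798, minus strand), had 22 reads at 0.2 kPa, 26 at 8 kPa and 24 at 64 kPa. The 3 values are close, and the 64 to 0.2 kPa log2 ratio was 0.12 (interval -0.77 to 1.03). H2-Eb1, on the same chromosome (34504236 to 34535648, plus strand), had 12, 26 and 18 reads. Its 8 to 0.2 kPa ratio of 0.94 had an interval from -0.04 to 2.12. At this depth no difference was detectable in either gene. The annotated spans of H2-Aa and H2-Eb1 overlap on opposite strands, though not in the exons of their canonical transcripts. Exons of the antisense gene Gm20513 cover 7.66% of the H2-Eb1 exon bases.

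Ciita, on chromosome 16 (10297923 to 10347694, plus strand), has a canonical transcript of 7483 bases in 19 exons. It had 0 reads in all 3 libraries. A count of 0 allows up to 3.08 normalized counts at 0.2 kPa, 2.83 at 8 kPa and 3.08 at 64 kPa, which per kilobase is 0.411, 0.378 and 0.411. Ciita therefore lay below this limit while its textbook target H2-Ab1 was read 221 to 265 times. A transcript present below that depth would not have been seen.

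Macrophage markers were also higher at 64 kPa. Of the 15 macrophage markers with a mean of at least 50, 12 were past a log2 ratio of 1 upward at 64 against 0.2 kPa, against 3.22% of all genes, and all 16 were highest at 64 kPa, as were 41.3% of all 14291 genes with a mean of at least 10. At 64 against 8 kPa 1 of them, the mannose receptor Mrc1 at 1.03, was past it, against 0.825% of all genes. Lyz2, the lysozyme gene and the most abundant of them, had 17911, 22788 and 38199 reads at 0.2, 8 and 64 kPa. The median log2 ratio of the 16 was 1.25 at 64 against 0.2 kPa, compared with 0.74 for Cd74 and -0.02 for H2-Ab1. The sum of the class II genes was 1.23 times its 0.2 kPa level at 64 kPa and the sum of the class I genes 1.16 times, where the marker sum was 2.16 times. The reporter tdTomato was higher at 64 kPa too. It was past the fold at 64 against 0.2 kPa (log2 ratio 1.70, interval 1.59 to 1.82) and at 64 against 8 kPa (1.16, interval 1.06 to 1.26), and none of the 3 other telocyte markers with a mean of at least 50 was. The part of the reporter level or of macrophage RNA in the values of the 10 genes was not tested. The dendritic cell list had 2 genes with a mean of at least 10. Of these Itgax, which macrophages also express, was at 1.13 at 64 against 0.2 kPa, and Zbtb46 at 0.09.

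The remaining class II machinery was uneven. Of 15 listed genes 13 were in the table (2 are older symbols of the same genes), and 9 had a mean of at least 50. Of these 9, 2 were past a log2 ratio of 1 upward at 64 against 0.2 kPa, where 3.22% of all genes were, and none downward: Marchf1, a ubiquitin ligase that removes class II from the cell surface, at 1.21 (interval 0.81 to 1.64), and Ctss, the protease cathepsin S that trims the invariant chain, at 1.08 (1.03 to 1.13). Ctss is also on the macrophage list. None was past it in the other comparisons. Marchf1 had 71, 102 and 165 reads at 0.2, 8 and 64 kPa. The median of the 9 was 0.48 at 64 against 0.2 kPa, 0.18 at 8 against 0.2 kPa and 0.26 at 64 against 8 kPa. H2-DMa and H2-DMb1, the peptide editor that loads class II, were at 0.02 and -0.06 at 64 against 0.2 kPa, close to H2-Ab1. H2-Ob and H2-Eb2 had no read, and H2-Oa had 1. The 7 genes of the factors that bind class II promoters (RFX, NF-Y and CREB) all had reads, with a median of 0.05 at 64 against 0.2 kPa, from Nfya at -0.14 to Rfxap at 0.24, and 0 of 7 past the fold in any comparison.

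None of the 11 class I pathway genes with a mean of at least 50 was past the fold in any comparison. At 64 against 0.2 kPa the 12 with a mean of at least 10 had a median of 0.04. The highest of the 11 was the chaperone calnexin (Canx) at 0.26 and the lowest the immunoproteasome subunit Psmb8 at -0.27. Nlrc5, the class I counterpart of Ciita, had 33, 45 and 48 reads at 0.2, 8 and 64 kPa, a ratio of 0.53 with an interval from -0.13 to 1.23. Of 11 other class I and class I-like genes, 8 were below 0 and 3 above at 64 against 0.2 kPa, where 50.9% of all genes were above 0, with a median of -0.17. Among the 7 of them with a mean of at least 50, H2-T23 was highest at 0.14 and Cd1d1, which shows lipids to NKT cells, lowest at -0.36. H2-D1 at 0.45 thus lay above each of these 7. H2-Q and H2-T genes are close relatives of H2-K1 and H2-D1, and their counts are uncertain for the same reason.

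**Figure D4:**
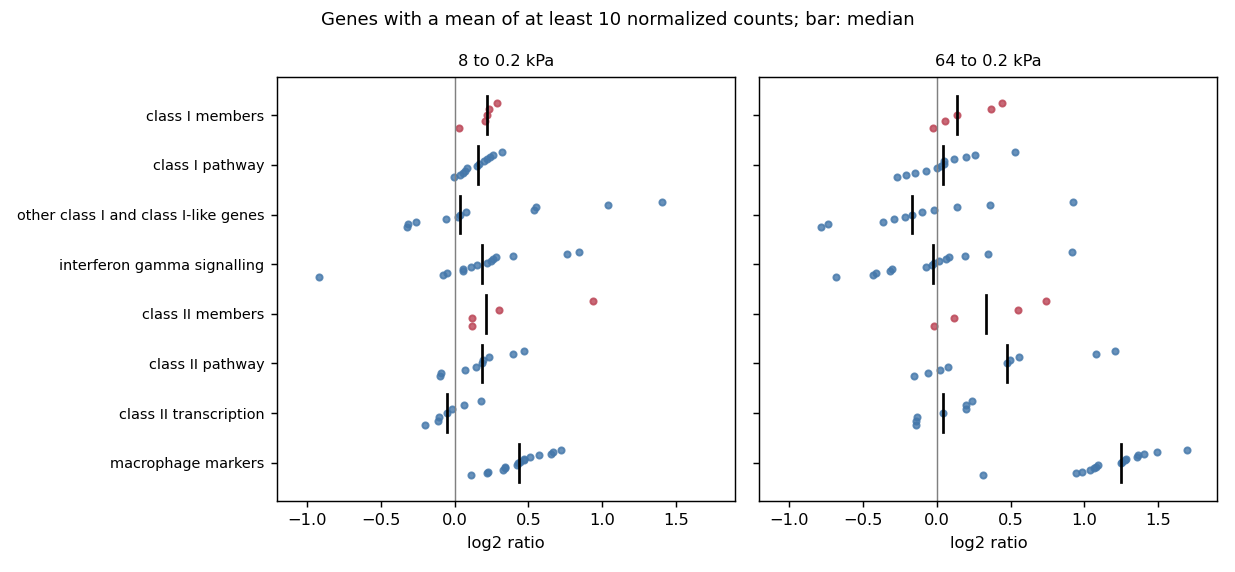
Log2 ratios of single genes (points) whose mean reached 10 normalized counts, and the median of each list (bars), 8 to 0.2 kPa on the left and 64 to 0.2 kPa on the right. The 10 genes described here are red, the other lists blue. The macrophage markers have a 64 to 0.2 kPa median of 1.25, the class I genes of 0.14 and the class II genes of 0.33.

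The 8 kPa library was the highest of the 3 for H2-K1, B2m and Tap1 among the class I genes and for H2-Ab1 and H2-Eb1 among the class II genes. Of these, H2-K1 alone kept that place under every alternative with its intervals to both other libraries off 0. B2m lost it with the trend subtracted, and Tap1 with the trend subtracted or with scaling to the upper quartile. The intervals of Tap1 and H2-Ab1 to both other libraries, and of H2-Eb1 too, included 0. It was the highest for 8 of 12 class I pathway genes, 7 of 11 other class I and class I-like genes and 9 of 14 genes of interferon gamma signalling with a mean of at least 10, compared with 24.3% of all 14291 genes. In the other lists it was the highest for 1 of 9 class II pathway genes, 0 of 7 class II transcription genes, 1 of 7 surface partners, 0 of 16 macrophage markers, 1 of 8 fibroblast markers, 1 of 5 telocyte markers, 1 of 2 dendritic cell markers and 0 of 2 endothelial markers. This count was made after the values were seen. H2-T23 had 1089, 1738 and 1198 reads at 0.2, 8 and 64 kPa, and Gbp2, a GTPase induced by interferon, 495, 911 and 525. Both were highest at 8 kPa. Among 13 interferon gamma signalling genes with a mean of at least 50, none was past the fold upward in any comparison, and 1 was past it downward, at 64 against 8 kPa, where 0.421% of all genes were. It was Cxcl9, a chemokine induced by interferon gamma, at -1.14 (interval -1.60 to -0.73), with 79, 155 and 64 reads at 0.2, 8 and 64 kPa. At 64 against 0.2 kPa the range of the 13 was from the feedback inhibitor Socs1 at -0.43 to Irf8, a factor of myeloid cells, at 0.92. The median of the 14 was 0.19 at 8 against 0.2 kPa, -0.02 at 64 against 0.2 kPa and -0.13 at 64 against 8 kPa. Ifng itself had no read in any library.

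Surface partners of antigen presentation showed no gene past the fold among 5 with a mean of at least 50. At 64 against 0.2 kPa they ranged from the adhesion molecule Vcam1 at -0.49 (interval -0.53 to -0.45) to Icam1 at 0.58 (0.47 to 0.70). The 7 with a mean of at least 10 had a median of 0.37.

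Genes whose pattern over the 3 libraries was nearest to the class medians were sought among 10903 others with a mean of at least 100, by the distance between pairs of log2 ratios (8 to 0.2 kPa, 64 to 0.2 kPa). Nearest to class I were Zfp334, Wdr7, Plekho2, Nova1 and Dusp16, with distances of 0.0058 to 0.013. Nearest to class II were Ulk1, Prkd2, Apobec1, Col6a1 and Ap2a1, with distances of 0.0073 to 0.011. With 3 libraries such a pattern is common. Within 0.05 of the class I medians lay 85 genes, and within 0.05 of the class II medians 116. Of the 4 genes behind the class II medians, H2-Aa and H2-Eb1 had only 12 to 26 reads. The point from which the class II distances were taken is thus itself uncertain.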

How the data were processed

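RNA was measured in 3 libraries, 1 a stiffness level, by stranded poly(A) sequencing per the labels' protocols. The deposited signal is, per the file names, DESeq2 normalized counts, in which each library's counts are scaled by its own factor. The submitters' processing notes name STAR 2.7.9a, featureCounts of Subread 2.0.1, DESeq2 1.34.0, bcl2fastq 2.20.0 and GRCm39; the annotation and counting options are not given in the sources used here. The 3 deposited files are the same table, with each column matched to a sample by its title. Dividing each column by its smallest positive value gave whole reads for 100.0% of genes (tolerance 0.001 reads), and these were used as counts. No read was counted for 33275 rows. A count model needs replicates and was not run.

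Ratios, intervals and lists were computed in Python 3.11.15 with scipy 1.17.1, pandas 2.3.3, numpy 2.4.6, biopython 1.88 and scikit-learn 1.9.0, and the ratio and trend steps were tested on simulated data. Positions, lengths and GC contents are from GENCODE vM39 (GRCm39), an annotation chosen here. The members, lists, thresholds and alternatives were chosen with earlier results of these data known. Named beside the 10 genes are list genes past the fold (or, where none is, the highest and lowest), the most abundant marker, markers at 0 and the 5 genes most alike. Others are named as chosen after their values were seen: Itgax, Zbtb46, Nlrc5, H2-DMa, H2-DMb1, H2-Oa, Gbp2, Cd34, Foxl1, Kit and Efhd1.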

Additional observations from a re-analysis of the deposited data

How the results depend on the processing

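No paired analysis was possible because each stiffness level has 1 library, and for the same reason no library was left out. Alternatives were pseudocounts of 0.1 and 10, 3 other scalings, other minimum means, a fold threshold of 0.5 and a correction for transcript length and GC content. The number of class I or class II genes past the fold stayed at 0 in every comparison, except that a threshold of 0.5 gave 1 for class II at 64 against 0.2 kPa (Cd74), by construction of the lower threshold. The class I median at 64 against 0.2 kPa was 0.085 with scaling to total reads, 0.083 with scaling to the upper quartile and 0.23 with the trend subtracted. At 8 against 0.2 kPa it was 0.18 with scaling to the upper quartile. At 64 against 8 kPa it was -0.0016 with the trend subtracted, -0.088 with scaling to total reads and -0.074 with scaling to the upper quartile. Both scalings lower the 64 to 0.2 kPa ratios, by up to 0.055 and 0.058, and by less in low genes, where the added 1 weighs more. Of 27 ratios of single genes, 19 stayed inside their counting interval under each alternative tried for them. Of those whose interval excluded 0, 3 turned: H2-K1 at 64 against 0.2 kPa (-0.0018, upper quartile), and B2m (0.038) and Tapbp (-0.0016) at 64 against 8 kPa, with the trend subtracted. Of those whose interval included 0, the sign changed for Tap1 at 8 against 0.2 kPa (-0.0066 with the upper quartile, -0.026 with the trend), H2-Ab1 at 64 against 0.2 kPa (0.072 with the trend) and H2-Aa at 64 against 8 kPa (-0.029 with total reads, -0.015 with the upper quartile). Beyond the construction of each alternative, the cause was not tested. Depth limits H2-Aa and H2-Eb1, with 12 to 26 reads, and Ciita, with 0.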
